A study of Mus musculus with 2 samples.

Results

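Retinoic acid genes were examined in mouse epiblast stem cells (EpiSC), a primed pluripotent cell type derived from the postimplantation epiblast. The set comprised 9 genes of the 22753 genes named on the array: the receptors Rara, Rarb, Rarg and Rxra, the binding proteins Crabp1 and Crabp2, the synthesis enzymes Aldh1a2 and Aldh1a3, and the degradation enzyme Cyp26a1. Members were taken by gene symbol among the non-control spots, with every probe kept, which gave 12 probes. Rara, Rarb and Rxra had 2 probes each and the other 6 genes had 1. All 12 probes carried a RefSeq accession of the named gene and were placed on its chromosome.

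The samples were 2 EpiSC clones, clone 1 and clone 2, with 1 array each. Both were collected at passage 9, and both are given as female and wildtype on a C57BL/6 background. The labels name no treatment other than the trypsin used for harvest. Each line is 1 clone, so a difference between the arrays cannot be told apart from a difference between any 2 cultures. Whether feeder cells or retinoids were in the culture is unstated in the labels.

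Retinoic acid is made from vitamin A (retinol) in successive oxidations, of which retinaldehyde dehydrogenases of the Aldh1a family carry out the last. Inside the cell it is carried by Crabp proteins, and in the nucleus it binds retinoic acid receptors (RARs), which sit on DNA as pairs with a retinoid X receptor (RXR). Cyp26 enzymes oxidise it for removal. In the mouse embryo Aldh1a2 is known for expression in early mesoderm at gastrulation, and retinoic acid is widely used to drive pluripotent cells into differentiation. Rarb and Cyp26a1 are textbook direct targets of the receptors, so their own transcripts are read as part of the pathway's output.

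Retinoic acid response elements of Rarb and Cyp26a1 are shown first, since these genes stand at both the input and the output of the pathway. In the 300 bases around each RefSeq gene start (250 before and 50 after, GRCm38.p6), a DR5 element was searched on both strands. It consists of a direct repeat of a receptor half-site (AGGTCA or else GGGTCA or else AGTTCA or else GGTTCA) with 5 bases between the repeats. Of 7 members with an entry (12 windows), 2 held one, Rarb and Cyp26a1. Of all 27025 genes with an entry, 0.115% held one (0.0974% of all 32851 windows). Both members were known beforehand as direct targets, so these numbers are no test of enrichment among the members. The same half-sites with 2 bases between them (DR2) were found in 0 members, so no DR5 element overlapped one. Among all genes with an entry, 0.311% had a DR2 element (0.268% of all windows). None of the 67 other pathway genes with an entry had either element in this window. The Rarb stretch is the 250 bases before the gene start on the minus strand, chr14:16575477-16575726. The Cyp26a1 stretch is 30 bases on the plus strand, chr19:37697770-37697799. Capitals mark the DR5 element, which lay 53 to 37 bases before the start of Rarb and 32 to 16 bases before the start of Cyp26a1.
Rarb: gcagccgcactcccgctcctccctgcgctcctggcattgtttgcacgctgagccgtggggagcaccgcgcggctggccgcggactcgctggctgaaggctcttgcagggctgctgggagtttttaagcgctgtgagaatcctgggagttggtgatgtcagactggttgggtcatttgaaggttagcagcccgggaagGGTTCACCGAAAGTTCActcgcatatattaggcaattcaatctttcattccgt
Cyp26a1: taaagaTGAACTTTGGGTGAACTaatttgt
On the Cyp26a1 gene strand the element runs in reverse. Read 5′ to 3′ on the other strand it is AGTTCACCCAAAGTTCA. A match in these letters is a description of the sequence and not a measured binding site.

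The sequences of 3 probes are also shown because the readings below turn on them: the probe of Crabp1 with a high signal, the probe of Rarb that read no signal above the negative controls, and the only probe of Cyp26a1. Each has 60 bases and is given 5′ to 3′ as on the array.
Crabp1: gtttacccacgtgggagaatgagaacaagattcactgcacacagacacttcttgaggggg
Rarb: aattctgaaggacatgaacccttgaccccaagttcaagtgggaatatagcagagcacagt
Cyp26a1: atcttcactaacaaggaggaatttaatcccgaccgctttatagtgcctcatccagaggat
In mm9 they lie at chr9:54616192-54616251 (Crabp1), chr14:17264648-17264707 (Rarb) and chr19:37775566-37775625 (Cyp26a1). Exon and UTR placement was not determined, since no mm9 annotation was used here.

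The arrays were of like quality. The 75th percentile of the processed signal was 830.3 in clone 1 and 736 in clone 2, and the median of 153 negative control spots was 7.96 and 7.13. Across the 13928 genes measured on both arrays, the SD of the difference between clones was 0.40 log2 and the median 0.05 log2. As a check of the labelled cell type, 10 of 10 epiblast and primed pluripotency markers were detected on both arrays, including Pou5f1, Nanog, Fgf5 and Otx2, against 3 of 9 naive markers. Markers of other cell types were present too. Fibroblast markers were detected 12 of 12 on both arrays, with a summed signal of 117 times the 75th percentile in clone 1 and 129 times in clone 2. Neural markers were detected 7 of 11 (27.3 and 26.2 times), visceral and parietal endoderm markers 5 of 14 (123 and 139.7 times) and blood and immune markers 4 of 7 (2.94 and 4.36 times). Of the endoderm sum all but 0.74 and 0.82 times came from Sparc and Lamb1. Amn, Dab2 and Sox7 were also detected on both arrays and Gata6 in clone 2 only, while Afp, Apoa1, Apob, Cubn, Sox17, Gata4, Foxa2 and Hnf4a were detected in neither clone. In such bulk RNA a small number of cells with much of a transcript and many cells with little of it cannot be told apart, and the part of other cell types in the signals below was not tested.

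Transcripts of receptors and binding proteins for retinoic acid were detected in both clones, those of Aldh1a2 and Aldh1a3 in clone 2 only and that of Cyp26a1 in neither. A probe was called detected when the scanner software flagged it as well above background. By that rule 6 of the 9 genes were detected on both arrays (Rara, Rarb, Rarg, Rxra, Crabp1 and Crabp2), against 61.3% of all genes. Aldh1a2 and Aldh1a3 were detected in clone 2 only, as were 2.58% of all genes, and 0 members in clone 1 only, beside 2.32%. Cyp26a1 was detected in neither, as were 33.8%. With 9 genes, 6 is close to the share among all genes. Under looser rules all 9 were detected on both arrays, by the software's positive and significant flag (80.0% of all genes) or above the 95th percentile of the negative controls (78.7%). Of the 6 genes measured on both arrays, 0 were 2-fold apart, against 2.56% of all measured genes (1.52% higher in clone 2 and 1.03% higher in clone 1). The median difference over these 6 was 0.26 log2 (clone 2 minus clone 1), beside 0.05 log2 over all genes.

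**Figure D1:**
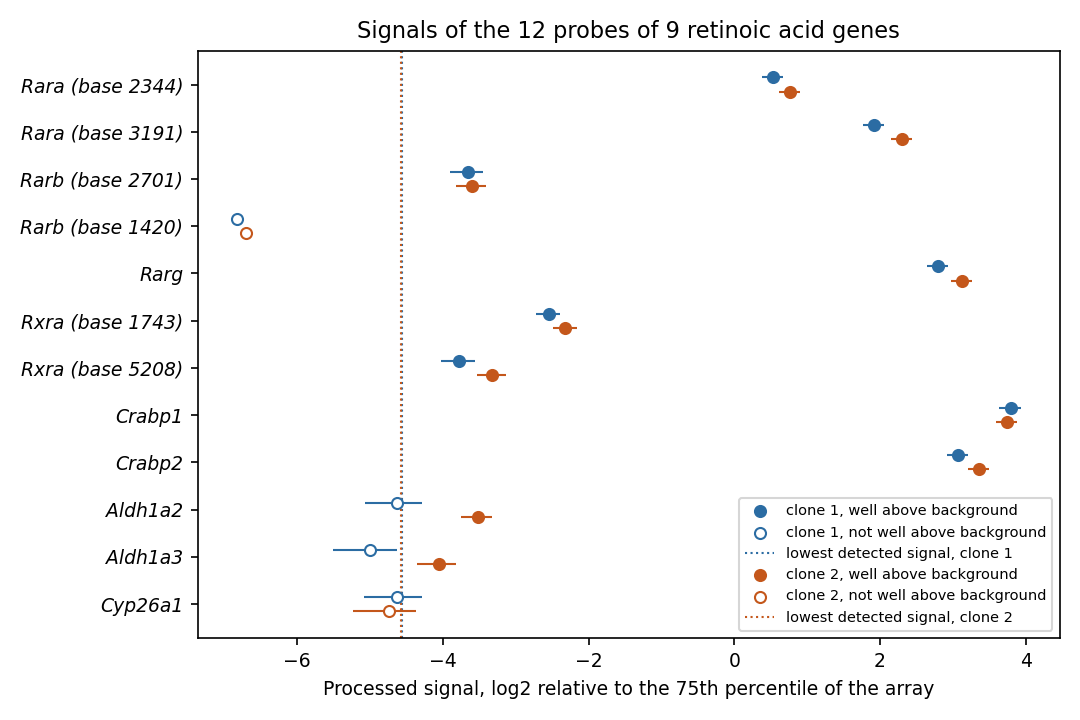
Processed signal of each of the 12 member probes in clone 1 (blue) and clone 2 (orange), on a log2 axis relative to the 75th percentile of each array. Filled points were well above background, open points were not, bars show the software's error (left out for the Rarb probe at base 1420, where it was as large as the signal), and dotted lines mark the lowest detected signal. The Rarb probe at base 1420 and Cyp26a1 are open in both clones, Aldh1a2 and Aldh1a3 in clone 1 only.

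Among the receptors, Rarg gave a processed signal of 5795 ± 579.6 in clone 1 and 6429 ± 643 in clone 2, where the error is the software's own estimate for 1 spot. Relative to the 75th percentile these are log2 levels of 2.80 and 3.13. Both arrays thus read Rarg, a receptor for retinoic acid that is expressed in the early mouse embryo, far above background, and the difference of 0.32 log2 (1.25-fold) exceeded the software's error of 0.20 for a difference but not its double. The probe lies at chr15:102065371-102065430 in mm9.

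Rara, the receptor with the broadest expression in mouse tissues, was read by 2 probes on chromosome 11. The probe at base 3191 of the transcript gave 3148 ± 315 in clone 1 and 3619.9 ± 362 in clone 2. The probe at base 2344 gave 1206 ± 121 and 1247 ± 125. Both lay higher in clone 2, by 0.38 and 0.22 log2 (1.30-fold and 1.17-fold), which is between 1 and 2 times the software's error of 0.20 for a difference.

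Rxra, one of the RXR partners with which RARs bind DNA, gave lower signals that were still well above background. Its probe at base 1743 read 142 ± 16.3 in clone 1 and 148 ± 16.6 in clone 2, and its probe at base 5208 read 60.7 ± 9.89 and 73.6 ± 10.1. The differences were 0.23 and 0.45 log2, both higher in clone 2, with software errors of 0.23 and 0.31. The RXR genes Rxrb and Rxrg are not members and are named here after their values were seen. Both were detected on both arrays. By the brightest probe, Rxrb read 9872 in clone 1 and 10638 in clone 2, and Rxrg read 658 and 604.

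Rarb was the member whose 2 probes disagreed on detection. The probe at base 2701 read 65.6 ± 10.1 in clone 1 and 60.7 ± 8.84 in clone 2, about 8.24 and 8.52 times the median negative control, and was well above background on both arrays. The probe at base 1420, printed above, read 7.33 ± 7.33 and 7.05 ± 7.04, which is 0.92 and 0.99 times the negative control median, and both values were surrogates that the software sets for spots without a significant signal. The probes are 1281 bases apart both in the genome and in the transcript, so no intron lies between them. The detected probe gave a difference of 0.06 log2, smaller than its error of 0.31, and of 0.53 log2 with normexp background correction. Detection of Rarb therefore rests on 1 of its 2 probes.

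The binding proteins were detected on both arrays. Crabp1 gave 11513 ± 1151 in clone 1 and 9879 ± 988 in clone 2, and Crabp2 gave 6979.7 ± 698 and 7545 ± 755. On the scale relative to the 75th percentile, Crabp1 was at 3.79 and 3.75 and Crabp2 at 3.07 and 3.36 log2. Crabp1, a carrier that in mouse cells has been linked to holding and clearing retinoic acid in the cytoplasm, differed by -0.05 log2, less than the software's error of 0.20. Crabp2, a carrier known to deliver the ligand to RARs, was 1.22-fold higher in clone 2 (0.29 log2), above that error but below its double. With normexp background correction the differences were -0.28 log2 for Crabp1 and 0.05 log2 for Crabp2. The probes lie on chromosomes 9 and 3. Signals of different probes depend on the probe, so no order among the genes is read from these levels.

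The synthesis enzymes were well above background in 1 clone, so each difference has only a lower bound. Aldh1a2, the main retinaldehyde dehydrogenase of the early mouse embryo, gave 33.5 ± 8.84 in clone 1, not well above background, and 63.9 ± 9.16 in clone 2, well above it. Taken against the lowest detected signal of clone 1, it was at least 2.06-fold higher in clone 2. This bound fell to 1.95-fold with normexp correction and also with the 75th percentile over probes detected on both arrays, below the 2-fold limit. The readings as given differed by 1.11 log2 (0.97 with normexp correction), with a software error of 0.43. In the authors' deposited table the same probe stood at 30.3 in clone 1 and 66.1 in clone 2.

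Aldh1a3, a related dehydrogenase known from the developing eye and nasal region of the mouse, gave 25.9 ± 7.57 in clone 1 and 44.2 ± 8.13 in clone 2. Clone 2 alone was again well above background, and the lower bound of its excess was 1.42-fold. The readings as given differed by 0.95 log2 with an error of 0.50. Of the 587 genes detected in clone 2 only, 21.1% had a lower bound of 2-fold or more, which Aldh1a2 passed and Aldh1a3 did not. Both clone 1 readings were above the 95th percentile of the negative controls (10.1) and carried the software's positive and significant flag, so signal was present there below the stricter rule. Of the 6 spots nearest to each probe, 0 were 2-fold higher in clone 2, and beside Aldh1a3 1 was 2-fold lower.

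Cyp26a1, the enzyme that clears retinoic acid in the early embryo, gave 33.4 ± 9.03 in clone 1 and 27.6 ± 7.97 in clone 2. Neither reading was well above background, although both were above the 95th percentile of the negative controls. The difference of -0.10 log2 was smaller than its error of 0.57. Of the pair of genes with a DR5 element before the start, Cyp26a1 was thus detected in neither clone and Rarb by 1 of its 2 probes. Receptor activity was not measured.

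**Figure D2:**
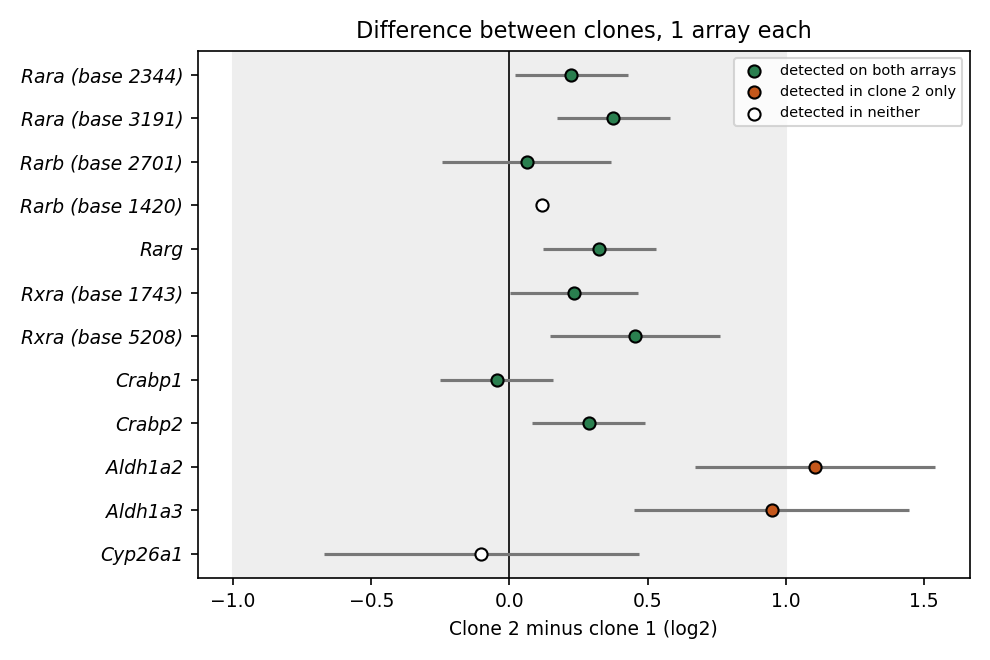
Difference between the clones (clone 2 minus clone 1, log2) for the 12 member probes, with the software's error of a difference as bars (left out for the Rarb probe at base 1420) and the range below 2-fold shaded. The Aldh1a2 value of 1.11, from a probe not detected in clone 1, lies outside the shaded range, and the differences of probes detected on both arrays run from -0.05 to 0.45.

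Of the 8 probes detected on both arrays, 7 read higher in clone 2. Of all 12 probes, 8 differed by more than 1 software error and 1, that of Aldh1a2, by more than 2. The same share over all probes was not computed, so the count of 8 is not read as a trait of the members. Over all measured genes the SD of the difference was 0.40 log2. The direction depended in part on the scale. Of the 6 genes measured on both arrays, 83.3% were higher in clone 2, and 66.7% when the 75th percentile was taken over probes detected on both arrays, where Rarb turned to -0.01 log2. Among all measured genes 57.1% were higher in clone 2. Spots of probes printed 10 times varied by a median SD of 0.07 log2 in clone 1 and 0.08 in clone 2 (0.11 and 0.13 for dim probes). That spread covers the spots of 1 array and not the cultures.

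The rest of the pathway was described with 8 lists of other genes. Of 87 genes, 86 had a probe, and 61 were detected on both arrays, 2 in clone 1 only and 23 in neither. The share on both arrays was 70.9%, against 61.3% of all genes. Over all genes 2.32% were detected in clone 1 only and 33.8% in neither. The counts per list below stand beside the same shares, and none was tested. Of the 61, 5 were at least 2-fold apart (8.20%, beside 2.56% of all measured genes), 2 higher in clone 2 and 3 higher in clone 1, and the median difference was 0.10 log2. With normexp background correction only Rbp7 and Aldh8a1 stayed at 2-fold, so the 3 genes that dropped out were those higher in clone 1. The same correction also shifted member probes. Among those not detected on both arrays, Cyp26a1 went from -0.10 to 0.62 log2, and the Rarb probe without significant signal from 0.12 to 0.82. Aldh1a2 went from 1.11 to 0.97 and Aldh1a3 from 0.95 to 0.83. Among probes detected on both arrays, that of Rarb at base 2701 went from 0.06 to 0.53. Crabp1 went from -0.05 to -0.28 and Crabp2 from 0.29 to 0.05. Probes of Rara, Rarg and Rxra moved by less than the spot noise of a difference. Whether such a shift accounts for the 3 genes that dropped out was not tested.

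**Figure D3:**
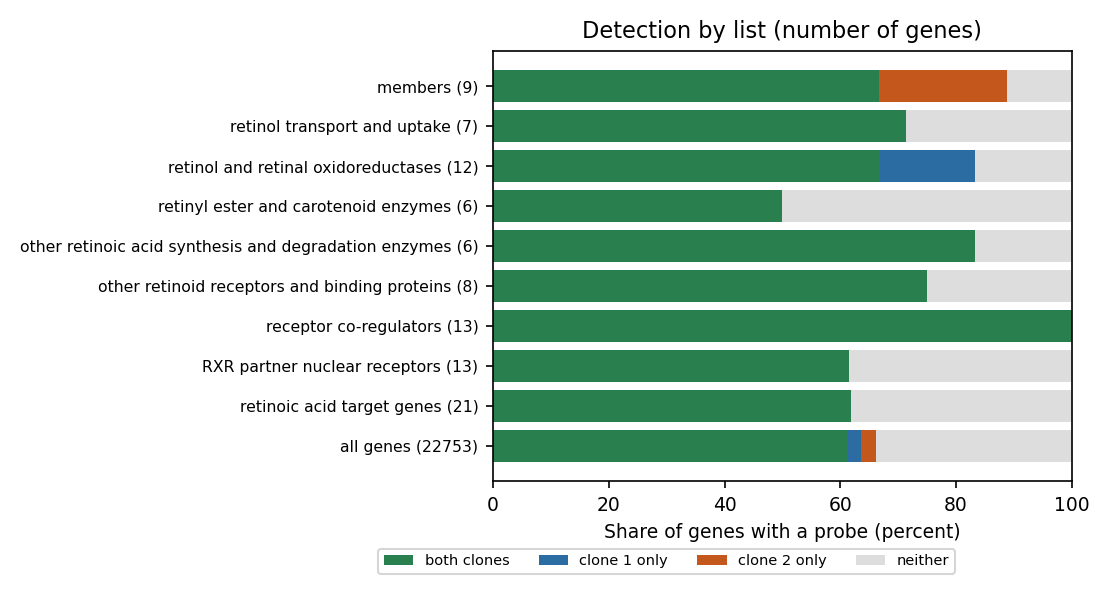
Share of genes (percent of those with a probe) that were detected in both clones, in 1 clone only or in neither, for the 9 members, the 8 lists of other pathway genes and all 22753 genes. All 13 co-regulators with a probe were detected in both clones, and all genes reached 61.3%.

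Retinol transport and uptake genes were detected on both arrays for 5 of 7. Rbp4, the carrier of retinol in blood, gave 246 ± 25.6 in clone 1 and 64.2 ± 9.19 in clone 2, so it was 3.40-fold higher in clone 1 (-1.76 log2, or -0.65 with normexp correction). Rbp7, a cellular retinol-binding protein, gave 65.3 ± 9.80 and 145 ± 15.8 and was 2.50-fold higher in clone 2, with 1 of the 6 nearest spots 2-fold higher as well. Stra6, the retinol uptake receptor, and Ttr, the serum partner of Rbp4, were detected in neither clone.

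Retinol and retinal oxidoreductases were detected on both arrays for 8 of 12, with a median difference of 0.00 log2. Rdh10, which makes retinaldehyde from retinol in the mouse embryo, gave 303 ± 31.3 in clone 1 and 123 ± 13.8 in clone 2. The clone 1 signal was thus 2.19-fold the other (-1.13 log2, or -0.41 with normexp correction), the opposite direction to Aldh1a2, which acts on its product. Rdh11 and Rdh12, retinal reductases, differed by 0.27 and 0.29 log2. Adh1 and Adh7 were detected in neither clone. Dhrs9 and Rdh5, named here after their values were seen, were detected in clone 1 only, with lower bounds of 1.87-fold and 1.21-fold. Among all 529 genes detected in clone 1 only, 27.2% had a bound of 2-fold or more.

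Retinyl ester and carotenoid enzymes were detected on both arrays for 3 of 6, and all 3 were lower in clone 2. Bco2, a carotenoid-cleaving oxygenase of mitochondria, gave 343 ± 35.2 in clone 1 and 73.1 ± 9.72 in clone 2, a 4.16-fold difference (-2.06 log2, or -0.87 with normexp correction). Of the 6 spots nearest to it, 2 were 2-fold lower in clone 2 too. Lpl, a lipase, and Dgat1, an acyltransferase that can esterify retinol, differed by -0.66 and -0.39 log2. Lrat, which stores retinol as esters, Bco1, which makes retinaldehyde from carotene, and Ces1d were detected in neither clone.

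Among the other enzymes of retinoic acid itself, 5 of 6 were detected on both arrays. Cyp26b1, the relative of Cyp26a1 that also degrades retinoic acid, gave 422 ± 42.9 in clone 1 and 747 ± 75.1 in clone 2, a 2.00-fold difference that fell just under the 2-fold limit (0.999 log2). Of the Cyp26 enzymes, Cyp26b1 was detected on both arrays, and Cyp26a1 and Cyp26c1 on neither. Aldh8a1, a dehydrogenase that can use 9-cis-retinal, gave 98.4 ± 12.9 and 237 ± 24.9 and was 2.72-fold higher in clone 2. Aldh1a7, an Aldh1a1 relative, differed by -0.74 log2 (-0.05 with normexp correction). Aldh1a1, another retinaldehyde dehydrogenase, was detected in both clones at 64.1 ± 9.62 and 48.2 ± 8.43 (-0.24 log2). Probes of Aldh1a1 and Aldh1a7 read close paralogs, and cross-hybridisation between them was not tested.

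Other retinoid receptors and binding proteins were detected on both arrays for 6 of 8, with a median difference of 0.02 log2. Rora, an orphan nuclear receptor, differed by -0.35 log2, which turned to 0.30 with normexp correction, and Rbp3, a retinoid carrier of the retina, by 0.32. Rorb and Rlbp1 were detected in neither clone. Receptor co-regulators were detected on both arrays for all 13 genes with a probe, and 10 of them were higher in clone 2 (median 0.20 log2), beside 57.1% and 0.05 log2 over all measured genes. Ncor1, a corepressor of unliganded RARs, read lower on the clone 2 array with either probe (-0.55 and -0.34 log2), Tbl1xr1, a subunit of the same corepressor complex, by -0.39 and -0.29, and Asxl1, a chromatin protein, differed by 0.38 log2.

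Nuclear receptors that pair with RXR were detected on both arrays for 8 of 13, and 6 of these 8 were higher in clone 2, with a median of 0.24 log2, beside the same 57.1% and 0.05 log2. Nr4a1, an immediate early orphan receptor, was 1.64-fold higher in clone 2, Ppard, a fatty acid receptor, 1.37-fold, and Nr4a2 1.40-fold. The receptors Nr1h4, Nr1i2, Nr1i3, Thrb and Vdr were detected in neither clone.

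Retinoic acid target genes were detected on both arrays for 13 of 21, a share of 61.9% beside 61.3% of all genes, and 0 were 2-fold apart. Their median difference was 0.19 log2. Gbx2, a homeobox gene of the early neural plate, differed most, with -0.90 log2 that became 0.01 with normexp correction. Rarres2, a secreted chemoattractant, differed by 0.38 log2. Of the 8 targets detected in neither clone, Cdx1, Cdx2, Foxa1, Hoxa3, Hoxb1 and Pax6 are transcription factors of the body axis, gut or neural tube.

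**Figure D4:**
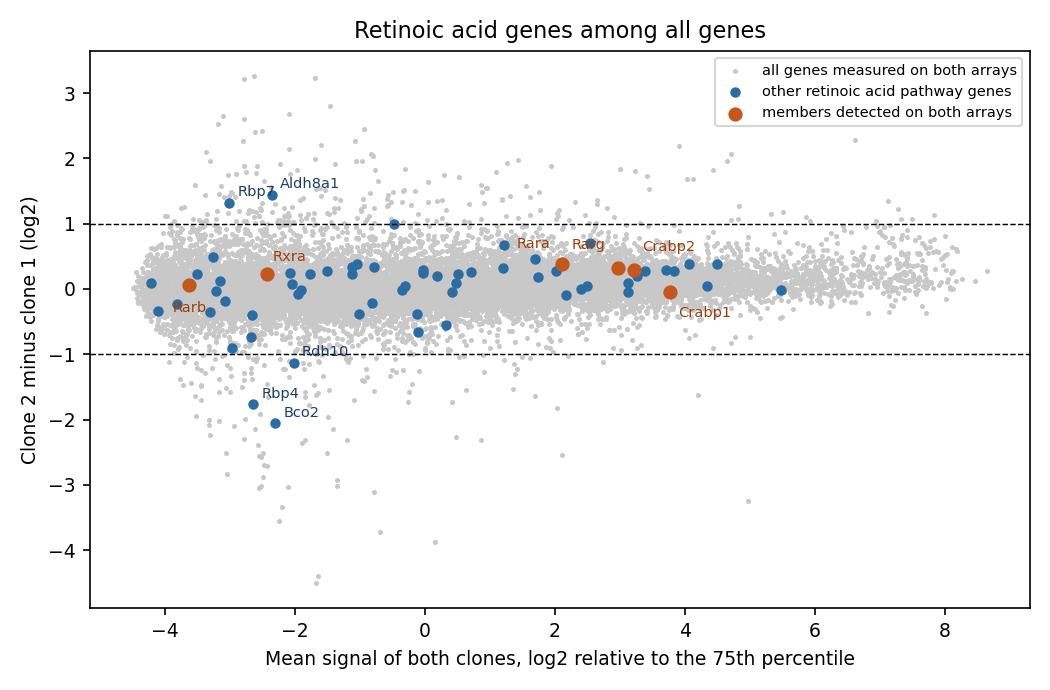
Difference between the clones (log2, vertical axis) against the mean signal of both (log2 relative to the 75th percentile) for 13928 genes measured on both arrays in grey, other retinoic acid pathway genes in blue and the 6 members detected on both arrays in orange. Dashed lines mark 2-fold. The 6 members lie between -0.05 and 0.38, and the 5 labelled pathway genes lie outside the dashed lines.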

How the data were processed

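Values are processed signal intensities that Agilent Feature Extraction 11.0.1.1 (protocol GE1_1100_Jul11, 1 colour, design 026655, mm9) made with spatial and multiplicative detrending, per the file headers. The authors' deposited normalized table is also an intensity, by a method not given in the sources used here, and served as an alternative. Of 43020 non-control spots, 277 (clone 1) and 246 (clone 2) with outlier flags were left out. Spots of a probe were averaged as log2 values, less the 75th percentile over probes of that array. The brightest probe stands for a gene, which is detected when any probe is. Probes were named through RefSeq (GRCm38.p6, names only): 26055 of 39429 by accession, 3195 by symbol, 930 by an older symbol and 9249 by none. A gene detected on 1 array only has a lower bound, against the lowest detected signal of the other array (-4.56 log2 for clone 1, -4.57 for clone 2) or its own, whichever is higher. With 1 array per clone no test between clones is possible, and the number of arrays limits the precision. The script was tested on simulated data. Members and lists were chosen with earlier results of these data known. Named from the lists were genes 2-fold apart or with a lower bound of 2-fold, the 3 with the largest difference per list and up to 6 detected in neither clone; some of these are not reported here. Promoter sequences are from RefSeq. limma 3.58.1 ran the normexp alternative (offset 50).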

Additional observations from a re-analysis of the deposited data

How the results depend on the processing

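No paired analysis was possible because each clone has 1 array. The count of members detected on both arrays was 9 of 9 with the positive and significant flag or above the 95th percentile of the negative controls (80.0% and 78.7% of all genes), and 6 with outlier spots kept or RefSeq matching. Members at least 2-fold apart numbered 1 (Aldh1a2) with either of those detection rules or with no filter on dim probes, and 0 under the other 9 alternatives. The median over members ran from 0.18 to 0.30 log2. Pathway genes at least 2-fold apart numbered 2 with normexp correction and 8 with either detection rule or no filter, and 5 or 6 otherwise. Of 72 alternative values for the 12 member probes (6 settings each), 65 moved by less than the spot noise of a difference. With normexp correction, Crabp1 had -0.28, Crabp2 0.051, Cyp26a1 0.62 and the Rarb probes 0.53 (base 2701) and 0.82 (base 1420). Crabp1 had -0.17 with quantile normalization and -0.17 with the authors' deposited values. The sign changed in 2 cases, Cyp26a1 with normexp and Rarb with another percentile. The lower bound of Aldh1a2 ran from 0.96 to 1.06 log2, under 2-fold with normexp and with the percentile over detected probes (1.95-fold each), and the cause of these shifts was not tested. Signals of Aldh1a2, Aldh1a3, Cyp26a1 and Rarb were 0.92 to 8.97 times the median negative control, which limits their precision.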
